A study of Homo sapiens with 30 samples.

Results

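MMP1, MMP3 and MMP10 code for secreted matrix metalloproteinases, and TIMP3 codes for a tissue inhibitor of these enzymes. The 4 genes were taken by name from the deposited FPKM values, out of 22537 distinct gene names, and their levels were followed over all 10 groups of exposure and time. They were chosen with results of these samples already known, so their levels and differences below are a description, given with errors and without tests. All 4 passed the filter of 1 FPKM or more in at least 3 libraries, which left 8530 genes for testing. MMP10 passed it only through the 3 wells exposed to electrically heated tobacco at 24 h, and MMP1 through those 3 wells and 1 well of tobacco on charcoal. Both therefore had to differ between groups once they were kept.

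The study exposed BEAS-2B, an established cell line of human bronchial epithelium, for 30 min on a rocker to smoke from a hookah, and took RNA 2 h or 24 h afterwards. The exposed groups were tobacco shisha on an electric heater, tobacco shisha on burning charcoal, herbal shisha without tobacco on charcoal, and charcoal with no shisha, and the control wells were called internal control. Each of the 10 groups had 3 wells, giving 30 libraries read as 50 bp single ends. The dose of each exposure was the highest that showed no toxicity by release of the enzyme LDH at 24 h, so the doses were not matched by smoke mass. What the control wells received and whether the 3 wells of a group were separate cultures are not given in the sources used here, so p-values measure only how wells differed, which may in part be technical.

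Matrix metalloproteinases are zinc enzymes that cut proteins of the extracellular matrix. MMP1 is an interstitial collagenase that opens the triple helix of fibrillar collagen, while MMP3 and MMP10 are stromelysins that cut proteoglycans, laminin and fibronectin and can activate other pro-enzymes, the MMP1 precursor among them. TIMP3 inhibits these enzymes and several ADAM and ADAMTS proteases and, unlike other secreted inhibitors of its family, binds to the matrix. In airway epithelium MMP1, MMP3 and MMP10 are known as genes that are low at rest and are induced by growth factors, cytokines and wounding, in part through AP-1 and ETS transcription factors.

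MMP1, MMP3 and MMP10 lie beside each other on the minus strand of chromosome 11, and the stretch that codes for the catalytic zinc site is shown because it is the site these enzymes cut with, and because it shows how close the coding sequences are. Each stretch is part of exon 5, comes from the hg38 genome and is written 5′ to 3′ along the coding strand, with the codons of the 3 zinc-binding histidines in capitals. The positions are chr11:102795540-102795590 for MMP1, chr11:102840526-102840576 for MMP3 and chr11:102776709-102776759 for MMP10.
MMP1: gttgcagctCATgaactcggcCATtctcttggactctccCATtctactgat
MMP3: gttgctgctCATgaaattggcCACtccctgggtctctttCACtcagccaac
MMP10: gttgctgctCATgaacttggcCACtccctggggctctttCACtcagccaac
MMP3 and MMP10 differed at 2 of these 51 bases, MMP1 and MMP3 at 15, and MMP1 and MMP10 at 14. The longest run of identical bases between their transcripts was 96 for MMP3 and MMP10, against 18 for MMP1 with either. Over whole transcripts, 59 of the 1967 stretches of 50 bases in MMP3 (3.0%) also occurred in MMP10, and those 59 made up 3.45% of the 1709 in MMP10. Reads from these stretches could not be told apart between MMP3 and MMP10. The shares are of positions and not of reads. After electrically heated tobacco at 24 h MMP3 averaged 140.7 FPKM and MMP10 11.3 FPKM, so shared reads could weigh more in MMP10. How much of the MMP10 values came from such reads was not tested. MMP1 shared 56 of 1921 stretches (2.92%) with WTAPP1, a pseudogene on the opposite strand that overlaps the 3 genes, and TIMP3 shared none of its 4554 with any other transcript searched. WTAPP1 reached at most 0.0699 FPKM in any library. SYN3, a synaptic gene that contains TIMP3 on the opposite strand of chromosome 22, was listed at 0 in all 30 libraries. The strand setting of the counting is not given in the sources used here, and without it reads from genes that overlap on opposite strands cannot be told apart.

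Promoter sequence was at hand for MMP10 and TIMP3, and the 120 bases before each start are shown because the search for AP-1, TATA and GC-box motifs found its matches nearest to the start there. The sequences are from RefSeq on GRCh38.p14, at chr11:102780629-102780748 on the minus strand for MMP10 and chr22:32801585-32801704 on the plus strand for TIMP3, with motif matches in capitals.
MMP10: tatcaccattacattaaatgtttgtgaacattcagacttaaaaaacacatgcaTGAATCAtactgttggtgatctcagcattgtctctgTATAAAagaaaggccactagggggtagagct
TIMP3: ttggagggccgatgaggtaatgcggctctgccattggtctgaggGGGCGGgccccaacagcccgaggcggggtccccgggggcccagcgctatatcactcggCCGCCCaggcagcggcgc
The motifs searched on both strands of the 250 bases before the start were TGANTCA and TGACGTCA (AP-1 and CRE forms), TATAAA and GGGCGG. MMP10 held TGANTCA once, at position -67, and TATAAA once, at -31, while TIMP3 held GGGCGG 5 times, in either orientation. Among 34943 RefSeq promoters of this length, 6.59% held TGANTCA, 1.63% TGACGTCA, 10.8% TATAAA and 42.5% GGGCGG. GC content was 34.4% in the MMP10 promoter and 72.4% in that of TIMP3, against a median of 58.0% over all promoters. A match is a string of letters and not a measured binding site.

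MMP3 had by far the highest level of the 3 enzymes after electrically heated tobacco at 24 h. It stood at 149.9, 99.4 and 172.7 FPKM in those wells, at 4.13, 2.40 and 1.64 FPKM after tobacco on charcoal, at 1.02, 1.12 and 1.10 FPKM after herbal shisha on charcoal, at 0.294, 0.187 and 0.243 FPKM after charcoal alone, and at 0.135, 0.239 and 0.139 FPKM in control wells. The wells of the first 3 groups did not overlap with each other or with control, and those of charcoal alone overlapped with control. The order at 24 h was therefore electrically heated tobacco, tobacco on charcoal, herbal shisha on charcoal, and then charcoal alone and control, which were not separated. The differences from control on the log2(FPKM + 1) scale were 6.88, 1.62, 0.83 and 0.08 in that order of exposures, each with an SE of 0.22. This scale understates differences of genes near or below 1 FPKM, and the ratio of mean FPKM between electrically heated tobacco and control was 822. By log2 difference MMP3 ranked 1st of 8530 genes in that comparison. The SE is pooled over the 10 groups and so understates the error of the more variable groups.

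At 2 h the order of exposures for MMP3 was different. The wells stood at 1.62, 1.38 and 0.235 FPKM after electrically heated tobacco, at 1.04, 1.38 and 1.37 FPKM after tobacco on charcoal, at 1.92, 1.37 and 1.37 FPKM after herbal shisha on charcoal, and at 1.88, 2.104 and 2.38 FPKM after charcoal alone, against 0.465, 0.422 and 0.204 FPKM in control wells. Mean MMP3 was highest after charcoal alone, at 2.12 ± 0.254 FPKM (SD, n = 3), and each exposure overlapped with the next in the order of means. Control wells lay below all wells of the 3 charcoal exposures and overlapped with those of electrically heated tobacco, where replicate 3 was at the level of the controls. The log2 differences from control were 1.20 for charcoal alone, 0.90 for herbal shisha, 0.73 for tobacco on charcoal and 0.54 for electrically heated tobacco (SE 0.22 each). Without replicate 3 of electrically heated tobacco its log2 difference was 0.88. The control wells overlapped between the times for MMP3, with a log2 difference of -0.22 for 24 h minus 2 h.

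MMP10, the other stromelysin, was listed at 0 in 25 of the 30 libraries. It stood at 10.9, 5.19 and 17.9 FPKM in the wells of electrically heated tobacco at 24 h, at 0.175 FPKM in replicate 1 of tobacco on charcoal and at 0.0550 FPKM in replicate 3 of herbal shisha on charcoal, both also at 24 h. All 15 libraries at 2 h and all control and charcoal-alone libraries were listed at 0, so no fold change against control is given. An exact 0 in FPKM data can also be a failed estimate.

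MMP1, the collagenase, was near 0 in every group but those of tobacco at 24 h. Its wells stood at 14.5, 7.06 and 19.5 FPKM after electrically heated tobacco at 24 h, at 1.33, 0.135 and 0.276 FPKM after tobacco on charcoal, and at 0, 0.0578 and 0.0862 FPKM in control. Both tobacco groups lay above the control wells, and tobacco on charcoal overlapped with herbal shisha on charcoal, whose wells ranged from 0.0537 to 0.139 FPKM. The log2 differences from control were 3.71 for electrically heated tobacco and 0.52 for tobacco on charcoal (SE 0.22 each). Without replicate 1 of tobacco on charcoal its difference was 0.20. At 2 h the highest MMP1 value in any library was 0.136 FPKM, after charcoal alone, and 9 of the 15 libraries were listed at 0.

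**Figure D1:**
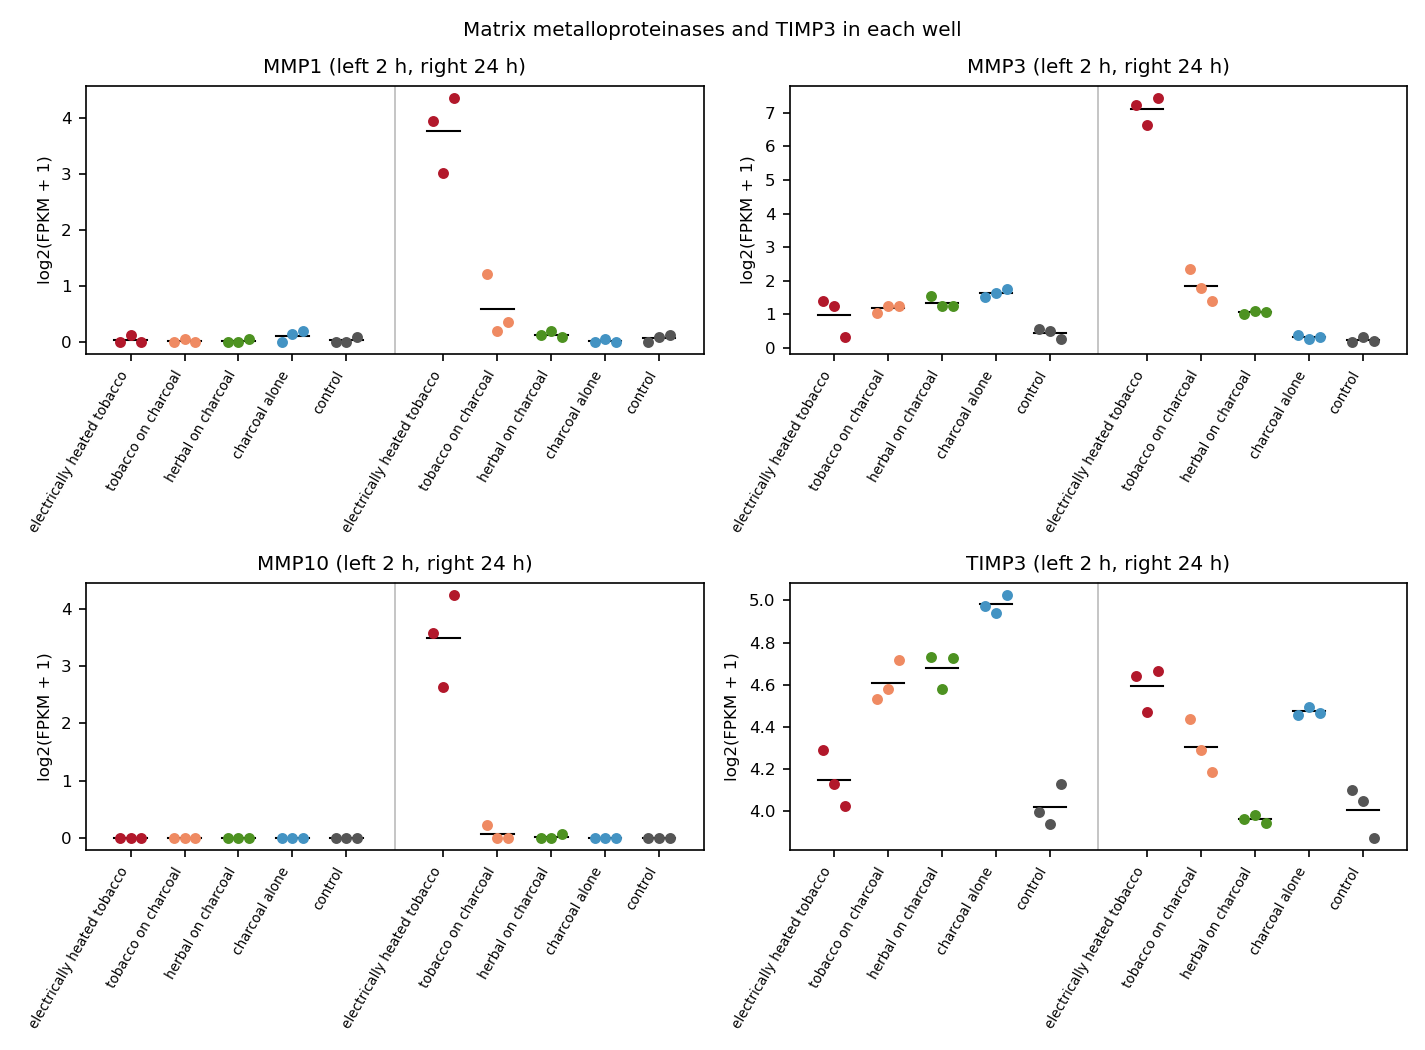
Each point is 1 well on the log2(FPKM + 1) scale, the black line is the mean of 3 wells, and each panel has its own vertical range (that of TIMP3 does not begin at 0). The 3 wells of electrically heated tobacco at 24 h stand above all others for MMP1, MMP3 and MMP10, while TIMP3 is highest after charcoal alone at 2 h.

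The 3 enzymes had the same order of wells after electrically heated tobacco at 24 h. Replicate 2 was the lowest and replicate 3 the highest well for each of them. TIMP3 (24.0, 21.2 and 24.4 FPKM) and ADAMTS1 also had this order, so it was not particular to the enzymes. The share of all tested genes with this order was not counted. The ratio of MMP3 to MMP1 in FPKM was 10.4, 14.1 and 8.88 in replicates 1 to 3, and that of MMP1 to MMP10 was 1.33, 1.36 and 1.09. HSPA6, an inducible heat shock protein that is nearly absent from resting cells, was chosen after its values were seen and showed the same order of wells, with 103.4, 14.9 and 244.4 FPKM. The part of this well-to-well difference in the level of the enzymes was not tested. Tobacco on charcoal at 24 h lay below electrically heated tobacco in every well for the 3 enzymes, with mean MMP3 at 2.72 ± 1.27 FPKM after tobacco on charcoal and 140.7 ± 37.5 FPKM after electrically heated tobacco (SD, n = 3 each). The log2 differences of tobacco on charcoal minus electrically heated tobacco were -5.27 for MMP3, -3.19 for MMP1 and -3.40 for MMP10.

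TIMP3 was expressed in all 30 libraries, between 13.7 and 31.6 FPKM, and its order of groups was not that of the enzymes. At 2 h its wells stood at 18.6, 16.5 and 15.3 FPKM after electrically heated tobacco, at 22.2, 22.9 and 25.3 FPKM after tobacco on charcoal, at 25.5, 23.0 and 25.5 FPKM after herbal shisha on charcoal, and at 30.5, 29.7 and 31.6 FPKM after charcoal alone, against 15.0, 14.3 and 16.5 FPKM in control. Charcoal alone was separate from all other groups, both shisha on charcoal groups overlapped with each other and lay above the rest, and electrically heated tobacco overlapped with control. The log2 differences from control were 0.96 for charcoal alone, 0.66 for herbal shisha, 0.59 for tobacco on charcoal and 0.12 for electrically heated tobacco (SE 0.075 each).

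At 24 h TIMP3 was highest after electrically heated tobacco, with wells at 24.0, 21.2 and 24.4 FPKM. It stood at 20.7, 18.6 and 17.2 FPKM after tobacco on charcoal, at 14.6, 14.8 and 14.4 FPKM after herbal shisha on charcoal and at 21.0, 21.5 and 21.1 FPKM after charcoal alone, against 16.2, 15.5 and 13.7 FPKM in control wells. Electrically heated tobacco and charcoal alone overlapped, tobacco on charcoal lay below both and above control, and herbal shisha overlapped with control. The log2 differences from control were 0.59 for electrically heated tobacco, 0.47 for charcoal alone, 0.30 for tobacco on charcoal and -0.04 for herbal shisha. Herbal shisha on charcoal lay below charcoal alone in all wells at both times, by 0.30 at 2 h and 0.51 at 24 h on the log2 scale. MMP3 at 24 h went the other way between these groups, at 1.08 ± 0.0562 FPKM after herbal shisha on charcoal and 0.241 ± 0.0534 FPKM after charcoal alone (SD, n = 3 each).

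In the comparison of electrically heated tobacco with control at 24 h, MMP1 ranked 4th of 8530 genes by log2 difference and TIMP3 826th. All 4 genes had their exposed wells above all control wells there, as did 36.5% of the tested genes, and nothing is read from that count because the genes were chosen on this contrast. After a look at the values, genes whose 3 wells of electrically heated tobacco at 24 h exceeded all other 27 libraries were counted, and there were 1128 (13.2%). Only 29 of these (0.34% of the tested genes) had a mean at least 1 log2 unit above the highest other library. MMP3, MMP10 and MMP1 were 1st, 4th and 6th among them by that gap. Nothing is read from these places either, since the genes were chosen with these values known and MMP10 passed the filter only through these wells. The others in the leading 8 were HSPA6, HSPA7, HSPA1A and the co-chaperone DNAJA4, all of the heat shock response, and the eosinophil chemokine CCL26. Reads of HSPA6 and HSPA7 could be shared, since these copies are nearly identical.

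The genes most like each of the 4 were sought by Pearson correlation over the 10 group means of log2(FPKM + 1) among 7866 genes, as a description in which a single group can set the value. MMP1 was most like TSPYL2 (0.994), PPP2CB, a catalytic subunit of protein phosphatase 2A (0.993), MMP10 (0.992) and CCL26 (0.982). Without electrically heated tobacco at 24 h these correlations were 0.815, 0.706, 0.972 and 0.610. Elsewhere MMP10 was above 0 only at 24 h, in replicate 1 of tobacco on charcoal (0.175 FPKM) and replicate 3 of herbal shisha (0.0550). Its correlations without electrically heated tobacco at 24 h thus rest on values near 0. MMP3 was most like PLEKHA3 (0.988), PPP2CB (0.985), the membrane protein TM4SF1 (0.982) and the mitochondrial chaperone HSPA9 (0.979), with 0.861, 0.793, 0.806 and 0.891 without that group. MMP10 was most like MMP1, PPP2CB (0.988), TSPYL2 (0.985) and DNAJA4 (0.984), and without that group the last 3 of these were at 0.706, 0.837 and 0.207. TIMP3 was most like RYBP, a Polycomb component (0.926), ZNF48 (0.913), the calcineurin inhibitor RCAN1 (0.913) and LUZP1 (0.899). For TIMP3 the values without electrically heated tobacco at 24 h were 0.929, 0.919, 0.926 and 0.894.

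The neighbours of the 3 enzyme genes on chromosome 11 were looked up after the values were seen. MMP7, MMP20, MMP27 and MMP8 before them and MMP13 after them were listed at 0 in all libraries. MMP12, macrophage elastase, which lies next to MMP3, averaged 0.974 ± 0.639 FPKM after electrically heated tobacco at 24 h (SD, n = 3), was listed at 0 in the 24 h control wells and did not reach the filter. Beyond the cluster, DCUN1D5, which promotes the neddylation of cullins, rose to 6.75 ± 0.200 FPKM after electrically heated tobacco against 4.06 ± 0.126 FPKM in control, a log2 change of 0.61 (limma adjusted p = 1.7e-07). On the far side BIRC3, an inhibitor of apoptosis, was at 4.91 ± 0.410 FPKM after electrically heated tobacco and 4.95 ± 0.184 FPKM in control (adjusted p = 0.911). TMEM123, which lies nearer to the cluster, fell to 121.4 ± 6.22 FPKM against 212.6 ± 3.37 FPKM (log2 change -0.80, adjusted p = 3.58e-12).

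**Figure D2:**
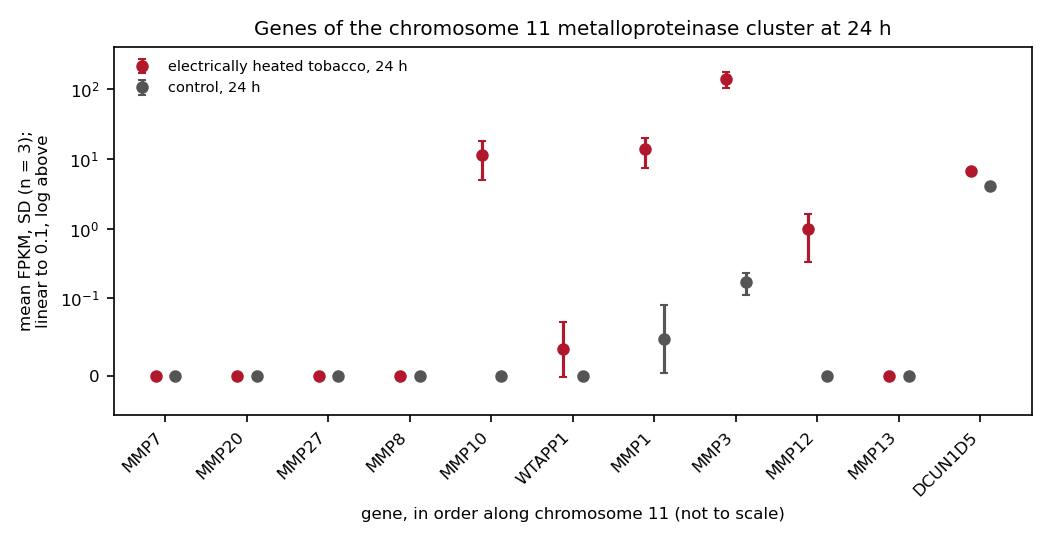
Points are mean FPKM with SD (n = 3) for genes in their order along chromosome 11, on an axis that is linear up to 0.1 and logarithmic above. At 24 h MMP10, MMP1, MMP3 and, at a lower level, MMP12 are above control after electrically heated tobacco, while MMP7, MMP20, MMP27, MMP8 and MMP13 are listed at 0 in both groups.

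The make-up of the metalloproteinase transcripts differed between the groups. The FPKM of 23 MMP genes summed to 208.6 ± 49.2 after electrically heated tobacco at 24 h, with a range of 155.6 to 252.8 over the wells, against 61.3 ± 4.48 in control (SD, n = 3 each). MMP3 made up 67.0 ± 2.76% of the sum after electrically heated tobacco and 0.276 ± 0.0754% in control. MMP14, a membrane-bound enzyme that activates the MMP2 precursor, made up 11.5 ± 3.54% and 38.4 ± 0.641% in the same order of groups. Its own level was 22.9 ± 1.20 FPKM after electrically heated tobacco and 23.5 ± 1.38 FPKM in control (log2 difference -0.04, limma adjusted p = 0.52). The sum over TIMP1 to TIMP4 was 269.4 ± 6.58 FPKM after electrically heated tobacco and 283.1 ± 7.28 FPKM in control, and TIMP3 was 8.62 ± 0.841% and 5.33 ± 0.362% of it. In bulk RNA, fewer cells of a type and less RNA per cell cannot be told apart.

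**Figure D3:**
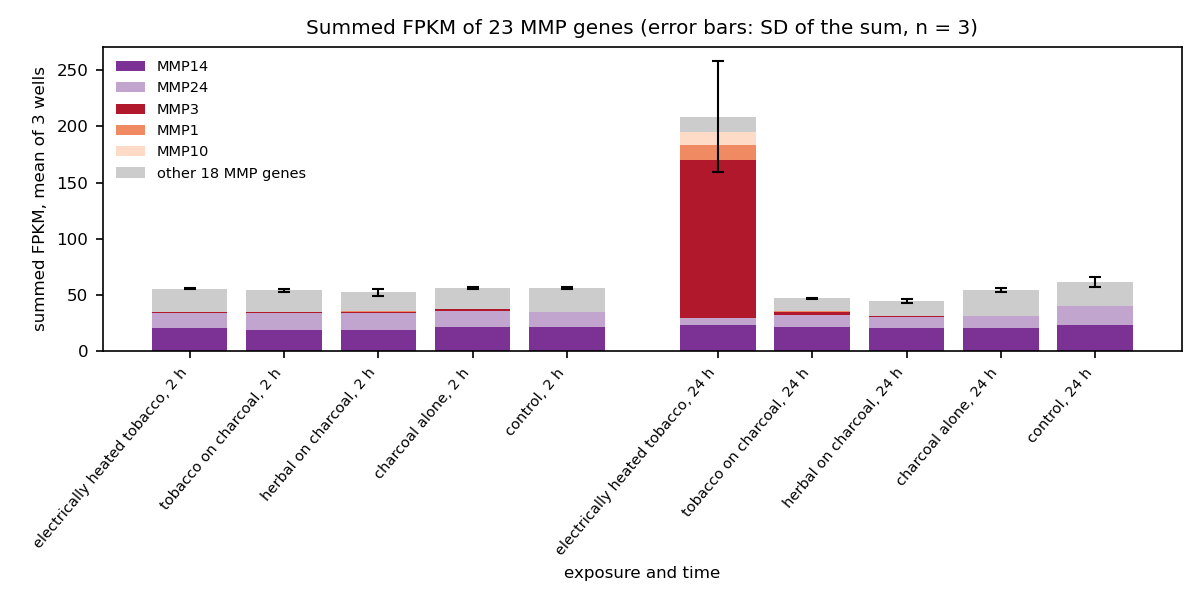
Bars are the summed FPKM of 23 MMP genes, as means of 3 wells split by gene, and error bars are the SD of the sum. MMP14 and MMP24 lead in 9 groups, and MMP3 makes up 67.0% of the sum after electrically heated tobacco at 24 h.

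The other genes of the protease network, 56 in 4 lists, show how far the enzymes moved with their family. Of these, 26 passed the filter. The exposures of a time share the same 3 control wells. At 24 h, 7 rose and 16 fell after electrically heated tobacco, against 34.3% and 29.5% of all tested genes. SERPINB2, which passed the filter only through that group, is 1 of the 7. After tobacco on charcoal 3 rose and 13 fell (25.9% and 18.6% of all), after herbal shisha 2 rose and 13 fell (16.5% and 10.4%), and after charcoal alone 3 rose and 6 fell (6.05% and 3.82%). The median log2 difference of the 26 was -0.44 after electrically heated tobacco, where that of all tested genes was 0.03. At 2 h the counts were 5 and 6 after electrically heated tobacco (9.27% and 24.8% of all), 5 and 4 after tobacco on charcoal (8.5% and 26.7%), 5 and 7 after herbal shisha (10.6% and 27.7%), and 6 and 1 after charcoal alone (8.16% and 16.2%). After charcoal alone at 24 h the count of 9 was 4 or 5 when any of 4 libraries was left out, among them control replicates 1 and 2 and charcoal replicates 2 and 3.

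Among the other metalloproteinases, 6 of 20 were tested. In limma none of the 6 rose after electrically heated tobacco at 24 h, at an adjusted or an unadjusted p below 0.05, while 5 fell, against 34.3% and 29.5% of all tested genes. Without the filter on low values 3 MMP genes below it were called higher. MMP24, a membrane-bound enzyme, fell to 6.34 ± 0.484 FPKM after electrically heated tobacco against 16.7 ± 1.92 FPKM in control, a log2 change of -1.27 (SE 0.09, limma adjusted p = 1.21e-10). MMP25, which is anchored to the membrane by a lipid, fell by 1.02 on the log2 scale (adjusted p = 3.05e-09). MMP24 and MMP25 also fell at 24 h after tobacco on charcoal, with log2 changes of -0.65 and -0.86, and after herbal shisha, with -0.70 and -0.71. After charcoal alone at 24 h MMP24 was at 10.8 ± 0.961 FPKM, and MMP25 had a log2 change of -0.365 (limma adjusted p = 0.0155). That call of MMP25 was lost in 3 of 11 alternative fits. The gelatinase MMP2 was at 2.52 ± 0.311 FPKM after electrically heated tobacco and 4.02 ± 0.423 FPKM in control (log2 change -0.52, adjusted p = 0.0131). MMP2 also fell after tobacco on charcoal, by 1.09, and herbal shisha on charcoal, by 0.78, and rose after charcoal alone, by a log2 change of 0.73. Its call after herbal shisha was lost on the 2 groups alone (adjusted p = 0.0853), and that after electrically heated tobacco without replicate 2 (0.0563). Of the 14 that were not tested, 7 were listed at 0 in every library and MMP12 had the highest group mean. At 2 h MMP14 fell by 0.15 after tobacco on charcoal and by 0.16 after herbal shisha. MMP11 and MMP15 fell after herbal shisha. Of these calls at 2 h, those of MMP14 after tobacco on charcoal, MMP14 after herbal shisha, MMP11 and MMP15 were lost in 4, 2, 8 and 4 of 11 alternative fits. In limma none of the 6 was called after electrically heated tobacco or charcoal alone, and none had an unadjusted p below 0.05, but on the 2 groups alone 1 was called after charcoal alone.

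Of the inhibitors other than TIMP3, TIMP1, a secreted inhibitor of most MMPs, rose to 143.1 ± 1.79 FPKM after electrically heated tobacco at 24 h against 96.6 ± 2.94 FPKM in control (log2 change 0.56, SE 0.05, limma adjusted p = 1.12e-09). TIMP4 rose by a log2 change of 0.77, to 2.38 ± 0.158 FPKM against 0.985 ± 0.169 FPKM. TIMP2, which also takes part in the activation of MMP2, fell to 100.7 ± 8.35 FPKM against 170.4 ± 9.04 FPKM (log2 change -0.75, adjusted p = 6.08e-11). The same directions were called after tobacco on charcoal and after herbal shisha, with log2 changes of 0.25 and 0.20 for TIMP1, 0.54 and 0.42 for TIMP4, and -0.29 and -0.32 for TIMP2. After charcoal alone TIMP1 fell by 0.21 at 24 h (adjusted p = 0.0517 without charcoal replicate 3). RECK, a membrane-anchored inhibitor, fell in all 4 exposures at 2 h, by between 0.30 and 0.44. TIMP2 at 2 h averaged 203.2 ± 3.35 FPKM in control and 190.9 ± 1.52 FPKM after charcoal alone (SD, n = 3 each). It averaged 154.8 ± 7.27 FPKM after herbal shisha, 170.5 ± 1.00 FPKM after tobacco on charcoal and 168.4 ± 4.80 FPKM after electrically heated tobacco. TIMP1 at 2 h averaged 85.5 FPKM in control, 99.1 FPKM after electrically heated tobacco and 84.8 to 92.9 FPKM after the charcoal exposures.

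The plasminogen system supplies plasmin, which can activate MMP precursors. PLAU, the urokinase, was at 130.5 ± 20.2 FPKM after electrically heated tobacco at 2 h and 89.8 ± 2.62 FPKM in control (SD, n = 3 each), and rose in all 4 exposures at that time, with log2 changes of 0.52 for electrically heated tobacco, 0.86 for tobacco on charcoal, 0.88 for herbal shisha and 1.14 for charcoal alone. At 24 h PLAU fell to 36.5 ± 0.302 FPKM after electrically heated tobacco against 66.8 ± 7.97 FPKM in control (log2 change -0.85, adjusted p = 6.61e-08), fell by 0.41 and 0.56 after tobacco and herbal shisha on charcoal, and rose by a log2 change of 0.30 after charcoal alone (adjusted p = 0.0483), a call that 9 of 11 alternative fits lost. Its receptor PLAUR rose in all 4 exposures at 2 h, by log2 changes of 0.63 to 1.11, and at 24 h rose after electrically heated tobacco to 25.8 ± 4.57 FPKM against 14.7 ± 0.515 FPKM in control. SERPINB2 is an inhibitor of urokinase. After electrically heated tobacco at 24 h its wells stood at 6.37, 2.09 and 11.4 FPKM, against 0, 0 and 0.0681 FPKM in control. Its order of exposed wells was that of the 3 enzymes and TIMP3, and its log2 difference was 2.68 (SE 0.26). It passed the filter only through those 3 wells, with 0.783 FPKM as its highest value elsewhere, so it had to differ and its test is not given. LRP1, a receptor that clears proteases and their inhibitors, fell by 1.22 after electrically heated tobacco at 24 h, and by 1.04 after tobacco on charcoal. The plasminogen gene PLG did not reach the filter.

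Of the ADAM and ADAMTS proteases, 8 of 17 were tested. ADAMTS1, which cuts proteoglycans and is inhibited by TIMP3, rose in all 4 exposures at 2 h, with the largest log2 change, 2.87, after electrically heated tobacco, 1.38 after tobacco on charcoal, 1.39 after herbal shisha and 0.62 after charcoal alone. The last of these lost its call in 5 of the 6 fits that each left out 1 library, with adjusted p between 0.0502 and 0.108 (limma). At 24 h ADAMTS1 stood at 17.4, 10.4 and 21.7 FPKM after electrically heated tobacco, against a control mean of 2.03 ± 0.396 FPKM (SD, n = 3), and rose by 2.48 on the log2 scale (adjusted p = 8.69e-10). It also rose after tobacco on charcoal, by 0.88. ADAMTS5, an aggrecanase that TIMP3 also inhibits, rose in all 4 exposures at 2 h by log2 changes of 0.40 to 1.06. ADAM12 fell by 1.28 and ADAM33 by 0.67 after electrically heated tobacco at 24 h. After tobacco on charcoal at 24 h they fell by 0.61 and 0.60. ADAM33 also fell by 0.50 after herbal shisha at 24 h, a call lost without control replicate 2 (limma adjusted p = 0.0797). ADAM12 averaged 3.29 FPKM after herbal shisha at 24 h against 4.11 FPKM in control. After charcoal alone at 24 h ADAM12 fell by 0.23, a call that 8 of 11 alternative fits lost.

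**Figure D4:**
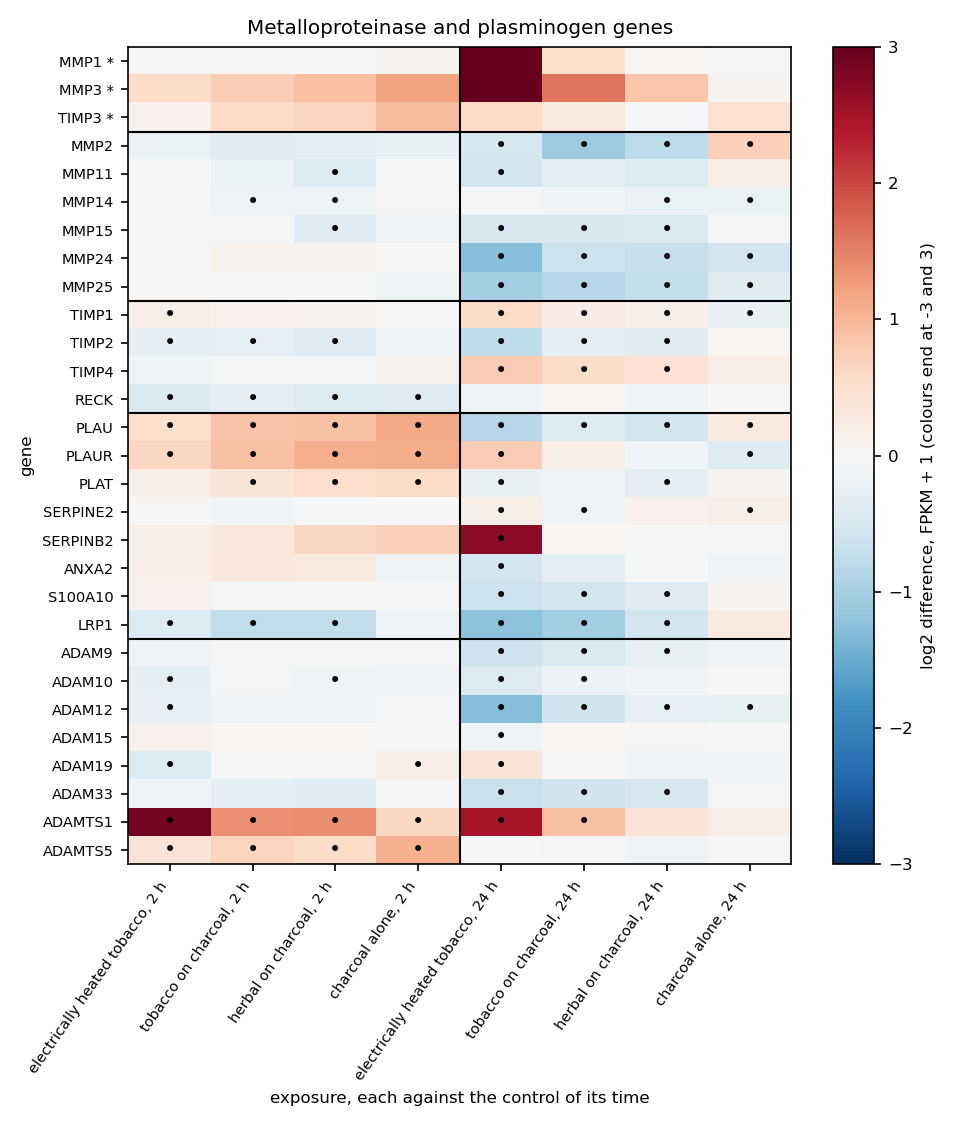
Colours are log2 differences from the control of the same time on the FPKM + 1 scale, dots mark genes called at an adjusted p below 0.05, and rows with a star are the chosen genes, given without tests. MMP10 is left out because its control libraries are listed at 0. MMP1 and MMP3 exceed the colour range after electrically heated tobacco at 24 h, where the differences of ADAMTS1 and SERPINB2 were 2.48 and 2.68.

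Among AP-1 and ETS factors, which bind the promoters of MMP genes in many cell types, 13 of 17 were tested. At 2 h 7 rose after electrically heated tobacco and 8 after each charcoal exposure, beside the 8.16% to 10.6% of all genes that rose. FOS rose to 226.5 ± 42.5 FPKM after electrically heated tobacco against 0.642 ± 0.142 FPKM in control, a log2 change of 7.10, and by log2 changes of 1.82 after tobacco on charcoal, 2.76 after herbal shisha and 1.45 after charcoal alone. ATF3 rose by 4.73 after electrically heated tobacco and by 2.73 to 3.75 after the others, and JUNB by 3.58 and 2.70 to 3.02. ETS1 rose by 0.82 to 1.12 after the 3 charcoal exposures. At 24 h 5 of the 13 rose and 4 fell after electrically heated tobacco, shares close to the 34.3% and 29.5% of all tested genes. The ETS factor ETV4 rose to 6.24 ± 0.986 FPKM against 1.38 ± 0.454 FPKM in control (log2 change 1.61, adjusted p = 3.12e-08), ETV5 by 1.46, FOS by 1.58 and ATF3 by 0.84, while the epithelial factor ELF3 fell by 1.76. The call of ATF3 was lost on the 2 groups alone and without replicate 3 of electrically heated tobacco. ETV4 and ETV5 also rose after tobacco on charcoal, by 0.65 and 0.66. On the 2 groups alone neither was called (adjusted p = 0.0803 and 0.0986). After tobacco on charcoal at 24 h ELF3 fell by 0.96 and ATF3 by 0.72. Both calls were lost without replicate 1 of tobacco on charcoal (limma adjusted p = 0.118 and 0.133). Tobacco on charcoal against control at 24 h had 6 calls in the list. Of these, 2 were rises and 4 falls, beside 25.9% and 18.6% of all tested genes. When replicate 1 of tobacco on charcoal was left out, 1 call remained.

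Of ligands that can induce MMP genes, 7 of 17 were tested. HBEGF, a ligand of the EGF receptor, rose at 2 h by log2 changes of 2.11 after electrically heated tobacco, 2.45 after tobacco on charcoal, 2.65 after herbal shisha and 2.49 after charcoal alone, and IL6 by 1.13 to 1.50. IL11, a cytokine of the IL6 family, rose at 2 h by 1.22, 2.22, 2.38 and 3.01 in the same order of exposures. At 24 h IL11 rose to 33.8 ± 8.47 FPKM after electrically heated tobacco against 2.98 ± 0.113 FPKM in control (log2 change 3.09, adjusted p = 2.56e-09) and by 1.34 after tobacco on charcoal. HBEGF rose by 1.39 after electrically heated tobacco at 24 h. IL1A fell by 1.02 and TGFB2 by 0.92 there, and no ligand was called by limma after charcoal alone at 24 h, where 1 had an unadjusted p below 0.05. Without the filter on low values 1 ligand was called after charcoal alone at 24 h. On the 2 groups alone 3 had an unadjusted p below 0.05 in limma.

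Genes for matrix proteins, the substrates of these enzymes, were then counted at 24 h. After electrically heated tobacco 10 of the 11 tested fell (29.5% of all tested genes), after tobacco on charcoal 9 fell (18.6%), after herbal shisha 8 fell (10.4%), and after charcoal alone 1 fell (3.82%) and 1 rose (6.05%). The basement membrane proteoglycan HSPG2 fell to 1.91 ± 0.587 FPKM after electrically heated tobacco against 10.8 ± 1.01 FPKM in control (log2 change -2.04, adjusted p = 1.47e-09). The collagen gene COL1A1 fell to 47.8 ± 4.40 FPKM against 138.1 ± 10.1 FPKM (log2 change -1.51), COL1A2 fell by 1.58 and COL4A2 by 1.47. THBS1, a matrix glycoprotein, rose at 2 h after the 3 charcoal exposures by 1.19 to 1.56 and fell by 1.40 after electrically heated tobacco at 24 h. At 2 h 6 of the 11 fell after tobacco on charcoal (26.7% of all tested genes) and 6 after herbal shisha (27.7%), while 1 rose after each (8.5% and 10.6%). After electrically heated tobacco 4 fell (24.8%) and 0 rose (9.27%), and after charcoal alone 0 fell (16.2%) and 2 rose (8.16%). HSPG2 fell at 2 h by 0.83 after tobacco on charcoal and by 0.84 after herbal shisha, where COL4A2 fell by 0.66.

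**Figure D5:**
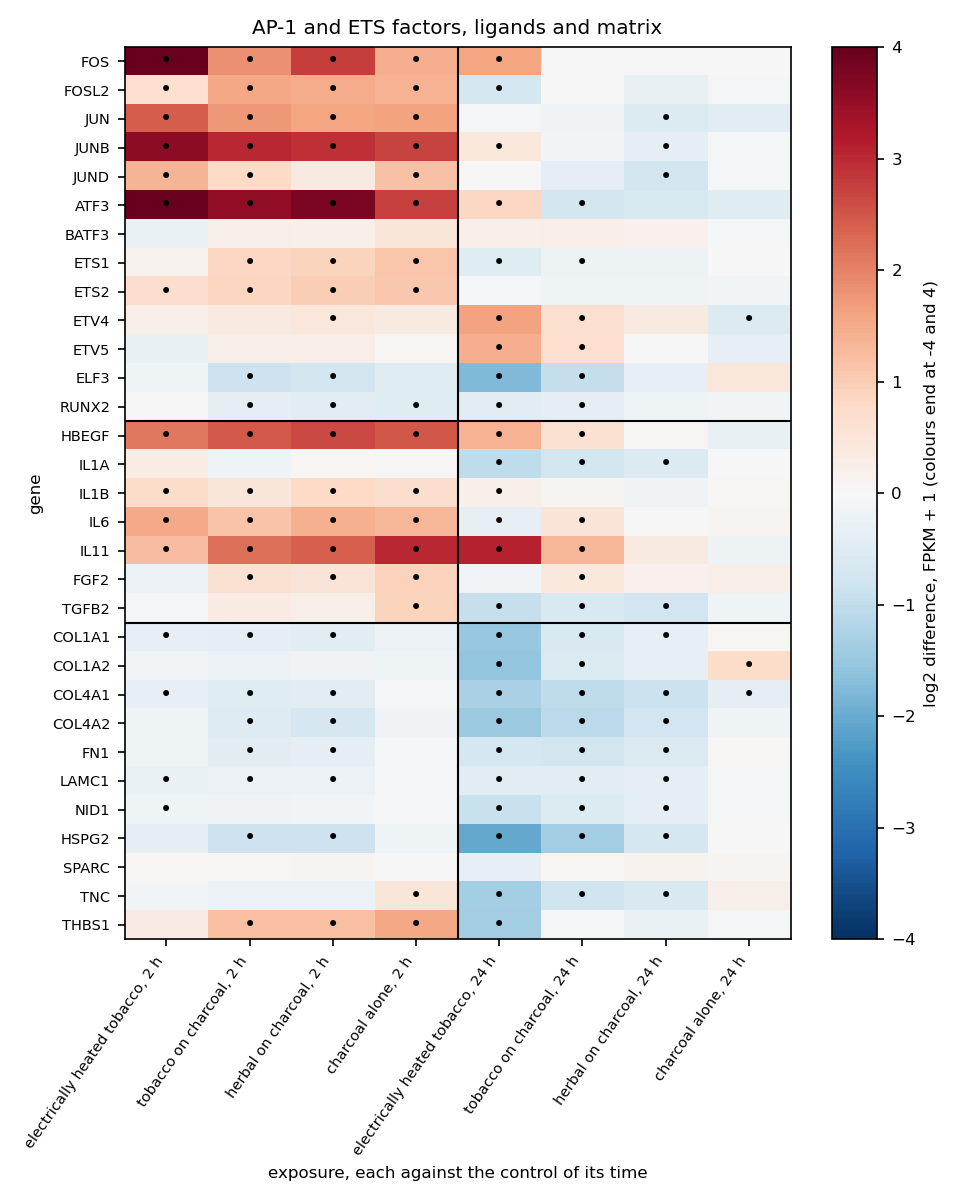
Colours are log2 differences from the control of the same time on the FPKM + 1 scale for AP-1 and ETS factors (top), ligands (middle) and matrix genes (bottom), and dots mark genes called at an adjusted p below 0.05. FOS and ATF3 exceed the colour range at 2 h after electrically heated tobacco, where they rose by 7.10 and 4.73, and at 24 h IL11 rose by 3.09 while HSPG2 fell by 2.04.

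Between the exposures themselves, the network was compared in the same fit. Tobacco on charcoal minus electrically heated tobacco at 24 h gave ADAMTS1 at -1.61, IL11 at -1.75, FOS at -1.59 and ETV4 at -0.96, all called lower after tobacco on charcoal (22.9% of all tested genes were), while MMP24 was higher by 0.62 and TIMP2 by 0.47 (24.9%). SERPINB2 stood at -2.62 there, without a test for the reason given above. At 2 h ADAMTS1 and FOS were lower after tobacco on charcoal, with log2 differences of -1.50 and -5.28 (12.7% of all genes were lower). Tobacco on charcoal minus herbal shisha on charcoal at 2 h gave no call among the 26 network genes in limma, where 2 had an unadjusted p below 0.05, and 52 calls among all genes (0.61%). At 24 h it gave 3 falls in the network, SERPINE2 by 0.27, ADAM12 by 0.36 and ADAM9 by 0.23 (2.71% of all genes fell). On the 2 groups alone limma called none of these and 0 of all genes, against 437 in the fit over all groups, with 1006 at an unadjusted p below 0.05. Without replicate 1 of tobacco on charcoal the calls of ADAM12 and ADAM9 were lost (limma adjusted p = 0.0673 and 0.142). That of ADAM9 was also lost without replicate 1 or 2 of herbal shisha (0.0687 and 0.0583). Herbal shisha on charcoal minus charcoal alone at 24 h gave falls of 1.51 for MMP2, 0.86 for PLAU and 0.37 for TIMP2 and a log2 rise of 0.41 for TIMP1 (15.3% and 16.2% of all genes fell and rose).

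Markers of other cell types were examined beside these results. Of 11 fibroblast markers 4 were tested, COL1A1, COL1A2, PDGFRB and THY1, and all 11 summed to 138.2 to 158.4 FPKM in the wells of electrically heated tobacco at 24 h, against 303.5 to 324.2 FPKM in control. Of 12 macrophage and neutrophil markers CD68 and CD14 were tested, and 7 of the other 10 were listed at 0 everywhere and none exceeded a group mean of 0.0340 FPKM. The sums over that list were 18.1 to 25.3 FPKM after electrically heated tobacco at 24 h and 22.8 to 25.0 FPKM in control. Of 11 epithelial markers KRT8, KRT18 and KRT19 were tested, so the label of an epithelial line was met only in part. That list summed to 769.0 to 830.3 FPKM after electrically heated tobacco at 24 h and 867.5 to 1031.2 FPKM in control. EPCAM, CDH1, KRT5, KRT14, TP63, CLDN4 and OCLN did not reach the filter, the highest group mean among them being 0.902 FPKM for OCLN. The part of these marker levels in the differences above was not tested.

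The libraries were also compared in the measures the files give. Median-of-ratios scaling factors were 1.014 to 1.017 in 2 h control wells, 0.957 to 0.995 in exposed wells at 2 h and 1.003 to 1.069 at 24 h. The median log2 difference of all tested genes from control at 2 h was -0.08 to -0.04, and -0.016 to -0.0013 after that scaling. The calls of MMP14 at 2 h were lost with it. FPKM summed to between 199985.1 and 220258.7 per library, and 7597 to 7943 genes reached 1 FPKM. Read counts were not part of the values, so the depth behind each value is unknown. The lowest values gave a relative depth between 0.732 and 1.53 of that of the first 2 h control library.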

How the data were processed

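The authors deposited FPKM values per transcript and library, per the file headers, with no read counts. Per the submitters' processing notes, reads were handled with HISAT2 2.1.0 and StringTie 1.3.4d on hg38. Annotation, filters and strandedness are not given in the sources used here. A whole-series matrix was not used, and 21 names that are bare numbers were left as they stand.

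Each file lists 29190 rows, and for repeated names the row with the highest mean was kept. Values were taken as log2(FPKM + 1), with 1 as the pseudocount. Genes at 1 FPKM or more in at least 3 libraries were fitted with limma 3.58.1 (trend, R 4.3.3), as 10 group means fitted to 30 libraries, with Benjamini-Hochberg adjustment over 8530 genes. Calls were made below an adjusted p of 0.05, and verbs of change are kept for called genes. The test was checked on simulated data. Tables and figures used Python 3.11.15, pandas 2.3.3 and matplotlib 3.10.9.

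The 4 genes and the gene lists were chosen with earlier results of these data known. From each list and exposure comparison the text names up to 3 called genes with the largest log2 differences of 0.58 or more and wells that do not overlap with control. TIMP1, TIMP2, MMP14, MMP2 and PLAU are named as well, though not in every comparison, and so are the 4 genes most like each chosen gene. Some genes that met the rule are not given, such as JUN at 2 h and JUND at 24 h. A gene that is left out may therefore have been called. One gene of the matrix list is not reported here. Other called genes given with values were chosen after their values were seen. Alternatives were a replicate block, no filter, a pseudocount of 0.1, median-of-ratios scaling, summed rows of one name, a fit on the 2 groups alone, and leaving out each library.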

Additional observations from a re-analysis of the deposited data

Results flagged for a closer look

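Among the protease network genes that the rule of size named in an exposure, those whose difference from control at 24 h departed from that at 2 h under the same exposure were picked out by an interaction term in the limma fit, with adjusted p below 0.05 over all tested genes. The list of each exposure holds only genes that the rule named in that exposure. Others also passed the term in some exposures and are not listed, such as RECK, TIMP1 and, after herbal shisha, ADAMTS5. The values below are the log2 difference at 24 h minus that at 2 h. No explanation was tested for any of them.

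After electrically heated tobacco SERPINB2 stood at 2.51, but it passed the filter only through those wells at 24 h, so its call was fixed by the filter. PLAU stood at -1.37, MMP24 at -1.22, MMP25 at -1.05 and ADAM12 at -1.04. TIMP4 stood at 0.89, LRP1 at -0.82, ADAM33 at -0.59 and TIMP2 at -0.49. PLAU was higher than control at 2 h by 0.52 and lower at 24 h, with a log2 difference of -0.85. After tobacco on charcoal PLAU stood at -1.27, MMP25 at -0.85, MMP2 at -0.78, MMP24 at -0.77, ADAMTS5 at -0.72, PLAUR at -0.70 and ADAM12 at -0.47. After herbal shisha on charcoal PLAU stood at -1.44, PLAUR at -1.18, ADAMTS1 at -0.98, MMP24 at -0.81 and MMP25 at -0.73. After charcoal alone PLAUR stood at -1.50, ADAMTS5 at -1.06 and PLAU at -0.84, while MMP2 was at 0.94, with a difference of -0.22 at 2 h and 0.73 at 24 h. PLAU was among them in all 4 exposures.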

How the results depend on the processing

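The depth behind the values is unknown, so the counting error of low genes such as MMP1 and MMP10 cannot be given. Of the differences of MMP1, MMP3 and TIMP3 from control, those of TIMP3 kept their size within the spread between wells under every alternative run. Differences from control that turned sign when 1 library was left out were those of MMP1 at 2 h after tobacco on charcoal, herbal shisha and electrically heated tobacco (-0.01, -0.01 and 0.01 with all libraries) and of TIMP3 after herbal shisha at 24 h (-0.04). A pseudocount of 0.1 changed the scale of low values. It put MMP3 at 9.004 after electrically heated tobacco at 24 h, 3.31 after tobacco on charcoal and 2.14 after herbal shisha, and at 1.08, 1.60, 1.87 and 2.30 after electrically heated tobacco, tobacco, herbal shisha and charcoal alone at 2 h, with -0.75 for control at 24 h minus 2 h. MMP1 was then at 6.47, 1.81, 0.39 and -0.39 for the 4 exposures at 24 h in the same order, and at 0.51 after charcoal alone at 2 h. Leaving out each library put MMP1 between 3.41 and 4.09 after electrically heated tobacco at 24 h, MMP1 between 0.20 and 0.72 after tobacco on charcoal, and MMP3 between 0.34 and 0.88 after electrically heated tobacco at 2 h.

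Leaving out each library gave 4 to 6 protease network calls after charcoal alone at 24 h, against 9 with all libraries, and 5 to 8 for control at 24 h minus 2 h. Counts over all genes were then 511 to 602 after charcoal alone at 24 h, against 842 with all libraries, 1420 to 2317 after herbal shisha at 24 h, against 2289, and 887 to 1071 for control at 24 h minus 2 h, against 1440. On the 2 groups alone tobacco on charcoal minus electrically heated tobacco had 2593 calls at 24 h, against 4078, and 679 at 2 h, against 1991, and tobacco on charcoal minus herbal shisha had 10 at 2 h, against 52. Leaving out libraries put tobacco on charcoal minus herbal shisha between 45 and 746 calls at 24 h and between 4 and 57 at 2 h. Of the recomputed values of genes named by the rule of size, 970 kept their call and 19 lost it, all with the same sign, among them ADAMTS1 after charcoal alone at 2 h, ATF3, ELF3, ETV5 and HBEGF after tobacco on charcoal at 24 h, and MMP2 after herbal shisha at 24 h (adjusted p = 0.0853 in limma on the 2 groups alone). Calls of other genes that were lost are given beside their values.

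The sources used here do not say whether wells with the same replicate number were paired, and the main fit used no pairing. In 0 of 14 comparisons did all 3 same-numbered pairs correlate over 0.1 (r from -0.107 to 0.231). For tobacco on charcoal and electrically heated tobacco at 24 h the pairs stood at 0.231, 0.181 and 0.071. Such a cutoff cannot show that the wells were unpaired. A replicate block left the log2 differences of the 4 genes as they were and gave 23 protease network calls after electrically heated tobacco at 24 h.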
